A study of Homo sapiens with 32 samples.

Results

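The state of THP-1 cells that received LPS and TGFβ1 together was compared with that of the same cells under PBS. THP-1 is a human monocytic leukaemia line that grows in suspension and serves as a model of monocytes. The comparison holds the 8 arrays titled for LPS with TGFβ1 and the 8 titled for PBS, 16 of the 32 arrays of the series, across 18388 tested probes. All cells were starved overnight in low-serum medium and then kept for 24 h with PBS, or with LPS at 100 ng/ml and TGFβ1 at 1 ng/ml. The other 16 arrays, 8 with LPS alone and 8 with TGFβ1 alone at the same doses and time, enter the shared estimate of the spread and serve as reference for single genes. Every sample is from 1 cell line. The labels do not tie arrays to separate cultures, so a p-value here measures the spread between these arrays, and that spread may be technical.

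LPS, a lipid of the outer membrane of Gram-negative bacteria, is handed by CD14 to a complex of TLR4 and MD-2 on the cell surface. From there the adaptor MyD88 leads to NF-kB and to inflammatory cytokines, and the adaptor TRIF leads to type I interferon, which acts back on the cell and turns on antiviral genes. TGFβ1 binds a pair of receptor kinases that phosphorylate SMAD2 and SMAD3. In monocytes it is known both for restraining inflammation and for favouring differentiation and matrix production. Cells in tissue that meet bacterial products in the presence of TGFβ1 receive both signals at once.

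The values are intensities of single Illumina probes and were analysed as log2(intensity + 50). On this scale the change of a dim gene is understated. Between 12130 and 13399 of 24518 probes were above background on each array. The 32 arrays lay on 4 chips, each with 2 arrays of every treatment. After the group means were removed, the arrays of all treatments fell into 2 sets on a first principal component with 42.3% of the remaining variance. Set 1 has 3 PBS arrays and 4 LPS+TGFβ1 arrays, and set 2 has 5 and 4. The median SD between arrays of 1 treatment was 0.19 log2 units over all arrays and 0.14 within a set. Values within each set are therefore given beside some of the results that differ between the sets. The plot of the gene lists shows the median of every list in both sets. A gene given without set values may still differ between the sets. Of the 162 genes taken up for naming, 47 differed between them by more than 1 log2 unit. PBS array 8 also lay apart from the other PBS arrays for several genes, and without it 3404 probes were higher and 4098 lower with both stimuli, against 3313 and 4021 with it. Per the labels a treatment always sat at the same places of a chip, so treatment and place cannot be told apart, and 4 LPS+TGFβ1 arrays carry position labels that also belong to TGFβ1 arrays.

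Both stimuli together moved a large share of the measured transcripts. By limma, 3313 probes (18% of those tested) were higher with LPS+TGFβ1 than with PBS and 4021 (21.9%) were lower, at an adjusted p under 0.05. Counts of list members against PBS given below are to be read beside these shares. The strong changes went mostly upward. At least 2-fold rises numbered 976 (5.31%) and at least 2-fold falls 393 (2.14%). Rises of at least 4-fold numbered 346 and rises of at least 16-fold 56, whereas 61 probes fell at least 4-fold and 7 at least 8-fold. The median log2 change over all tested probes was -0.04, and 5% of probes lay below -0.68 and 5% above 1.05. All 8 LPS+TGFβ1 arrays lay above all 8 PBS arrays for 1707 probes (9.28%) and below them for 1431 (7.78%). Of the called probes, 3160 of the higher and 3831 of the lower ones had the same sign on each of the 4 chips. With quantile normalization 38.1% of called probes were higher, against 45.2% without it, so the balance of small rises and falls depends on the scaling.

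**Figure D1:**
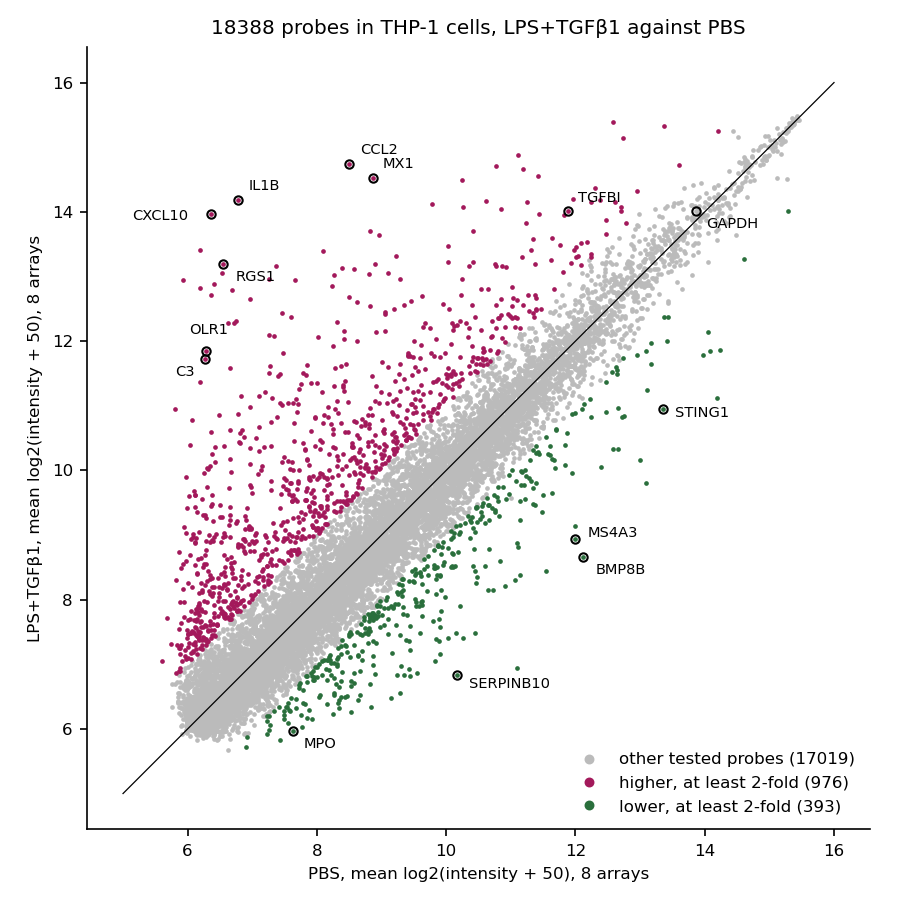
Mean log2(intensity + 50) of each of 18388 tested probes over the 8 PBS arrays (x axis) and the 8 LPS+TGFβ1 arrays (y axis), with the line of equality. The 976 probes at least 2-fold higher reach far above the line, up to a log2 change of 7.61 for CXCL10, while the 393 probes at least 2-fold lower stay closer to it.

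Chemokines, cytokines and antiviral genes stood beside genes of other kinds among the largest rises. CXCL10, which draws activated T cells, had an intensity of 19.7 to 47.7 (median 33.5) over the 8 PBS arrays and of 7057 to 35750 (median 18380) over the 8 LPS+TGFβ1 arrays. It was above background on 1 PBS array only and on every LPS+TGFβ1 array, and its log2 change of 7.61 ± 0.47 (standard error) had an adjusted p of 2.18e-15. IL1B, the precursor of interleukin-1 beta, ran from 32.7 to 87.4 (median 65.7) under PBS and from 10290 to 31560 (median 18500) with both stimuli. The groups lay far apart, with a log2 change of 7.40 ± 0.18 (adjusted p = 3.57e-26). No PBS array showed IGFBP3, a secreted binder of insulin-like growth factors, above background (median 17.8). The intensity was 5932 to 20500 (median 11650) with both stimuli. It was at least 119-fold higher (adjusted p = 1.96e-22), and a dimmer probe of the gene was likewise above background on no PBS array and on all 8 LPS+TGFβ1 arrays. CXCL13, a B cell attractant, was likewise below background on all PBS arrays (median 15.6) and reached 4192 to 13680 (median 9011), at least 86.0-fold higher (adjusted p = 3.09e-19).

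RGS1, which shortens signals of G protein-coupled receptors, rose by 6.65 ± 0.25, from 32.8 to 66.1 (median 41.5) to 5724 to 14470 (median 9214). EBI3, a subunit of interleukin cytokines, rose by 6.52 ± 0.16, from a median of 50.5 to a median of 8451. In both genes the lowest LPS+TGFβ1 array was far above the highest PBS array. CCL8 and CCL2, attractants of monocytes, rose by 6.34 ± 0.62 and 6.24 ± 0.40. The PBS arrays spanned 82.9 to 731.7 (median 443.2) for CCL2, and the LPS+TGFβ1 arrays 17620 to 42180 (median 27870). MMP9, which cuts denatured collagen, had 10.4 to 245.7 (median 169.7) under PBS and 5650 to 11290 (median 8170) with both stimuli, a rise of 5.71 ± 0.38. IL4I1, a secreted amino acid oxidase, rose by 5.66 ± 0.13 with a narrow range of 4274 to 5374 over the LPS+TGFβ1 arrays. OLR1, a receptor for oxidised low-density lipoprotein, had 1.07 to 49.6 (median 34.3) under PBS and 2132 to 5752 (median 3841) with both, a rise of 5.57 ± 0.34.

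These rises differed in how the arrays with 1 stimulus stood. The comparisons of LPS alone and TGFβ1 alone use the same PBS arrays, so their values are only set side by side. For CXCL10 the log2 change was 7.15 with LPS alone and 0.02 with TGFβ1 alone, and LPS+TGFβ1 differed from LPS by 0.45 (adjusted p = 0.523). OLR1 showed the other order, with 0.79 for LPS alone and 4.63 for TGFβ1 alone, and LPS+TGFβ1 lay above LPS by 4.79 (adjusted p = 5.84e-13) and above TGFβ1 by 0.94 (adjusted p = 0.0315). RGS1 had 4.64 and 3.76, and the level with both stimuli was above LPS by 2.01 (adjusted p = 1.44e-07) and above TGFβ1 by 2.89 (adjusted p = 1.63e-11). IL1B with both stimuli was below LPS alone by a log2 difference of -0.63 (adjusted p = 0.0129), which was 0.06 in set 1 and -1.31 in set 2. Over all tested probes, 1506 were higher and 1861 lower with both stimuli than with LPS alone, but that split turned to 2074 and 1196 when the arrays were scaled to a common median. With the replicate number as a block 2056 were higher and 3227 lower than with LPS.

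**Figure D2:**
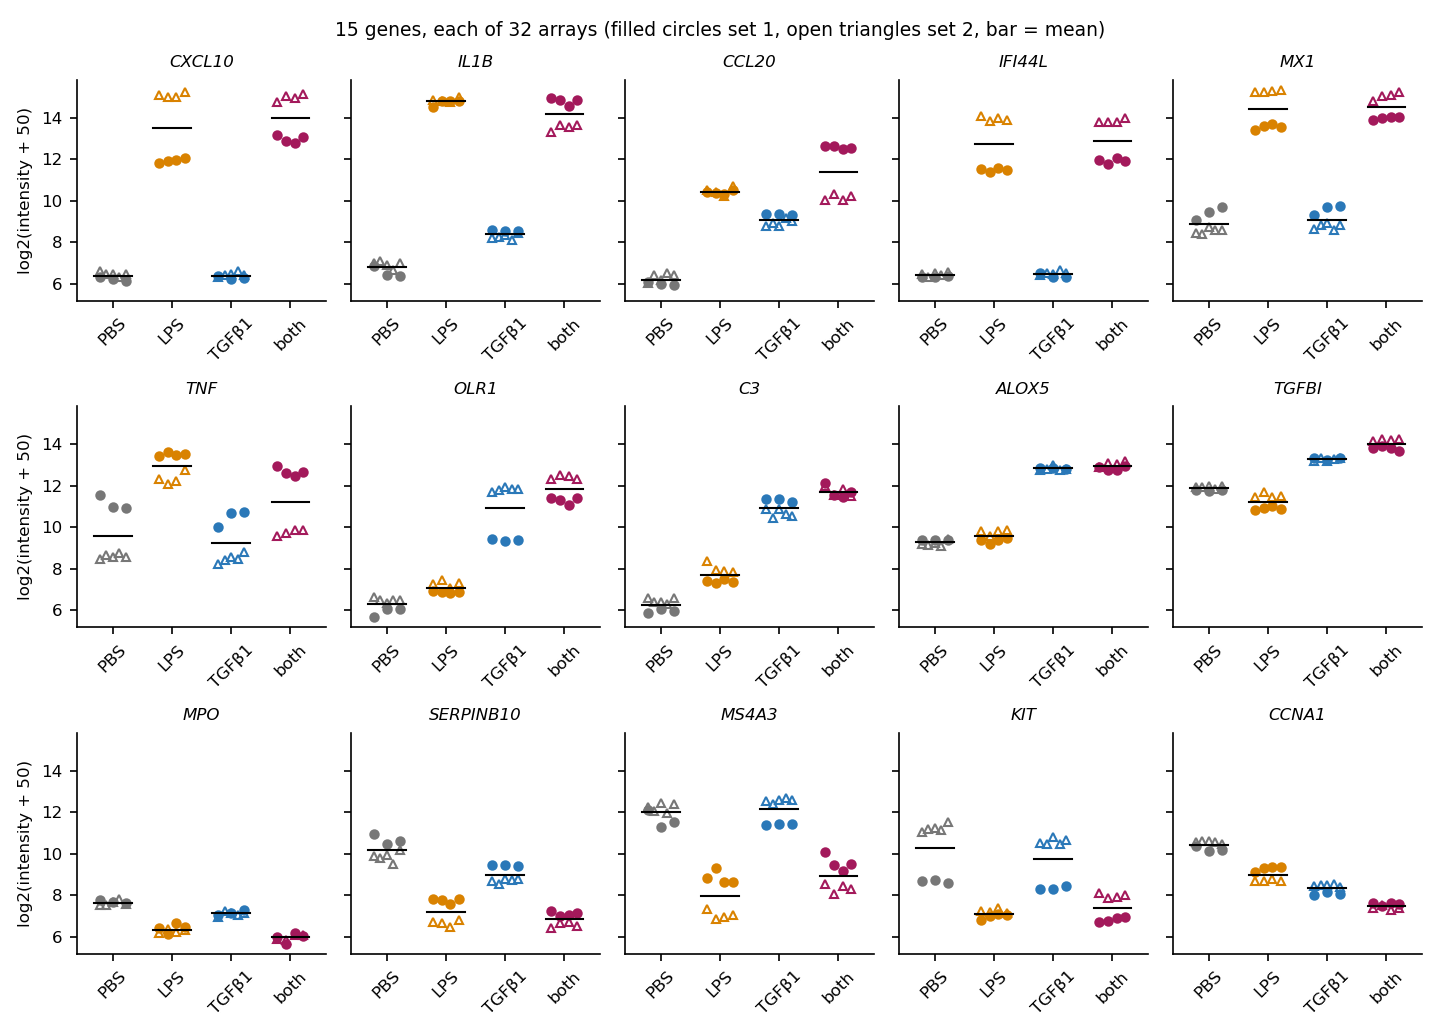
log2(intensity + 50) of 15 genes on each of the 32 arrays in the 4 treatments, with both stimuli written as both, filled circles for set 1, open triangles for set 2 and a bar at each mean. CXCL10, IL1B, IFI44L and MX1 stand high wherever LPS was given, OLR1, C3, ALOX5 and TGFBI wherever TGFβ1 was given, SERPINB10 and CCNA1 are lowest with both, and for TNF set 1 lies above set 2 in every treatment.

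The inflammatory cytokines rose as a group. Of 19 tested cytokine genes, 13 rose, 0 fell and 6 did not pass the test, with a median log2 change of 1.43 against -0.04 over all probes. At an unadjusted p under 0.05 the counts were the same, 13 and 0. IL6, a driver of the acute phase response, was below background on all 8 PBS arrays (median 24.4) and had 406.1 to 896.6 (median 600.2) with both stimuli, at least 7.15-fold higher (adjusted p = 2.03e-12). It was lower than with LPS alone, by a log2 difference of -1.43 (adjusted p = 0.000103). TNF, the cytokine that activates endothelium and other leukocytes, had 307.9 to 2992 (median 371.5) under PBS and 721.1 to 7843 (median 3297) with both stimuli. Its arrays overlapped, because the set 1 arrays under PBS lay above the set 2 arrays with both stimuli. The log2 change of TNF was 1.66 ± 0.56 (adjusted p = 0.0165), and the sets gave 1.52 and 1.15, both below it. Set 1, where TNF was higher, holds 3 of the 8 PBS arrays and 4 of the 8 LPS+TGFβ1 arrays. The value over all arrays therefore also takes in this uneven split. IL32 and IL1A, both below background on all 8 PBS arrays, rose above it on all 8 LPS+TGFβ1 arrays. TNFSF10, a ligand that can trigger death receptors, rose by 2.41 (set 1, 0.79 and set 2, 3.94). CSF1, LIF and IL27 were below background on all 16 arrays. Set against LPS alone, 1 cytokine of the list was higher with both stimuli and 8 were lower, where 8.19% and 10.1% of all tested probes were higher and lower in that comparison. That direction turned between the sets. The median log2 value of the list was 8.83 to 9.03 over the set 1 arrays with both stimuli and 8.44 to 8.65 over those with LPS, and in set 2 it was 8.33 to 8.76 with both and 9.05 to 9.31 with LPS. For 7 of the 40 lists described here the arrays with both stimuli lay wholly above those with LPS in 1 set and wholly below them in the other, namely the cytokine, CC chemokine, interferon gamma-type, MHC class II, metalloproteinase, glycolysis and mitosis lists.

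CC chemokines formed the list with the highest median. Of 12 tested CC chemokines 10 rose and 1 fell (median 4.08), and of 10 tested CXC chemokines 9 rose and 1 fell (median 2.85). CCL20, which attracts cells with the receptor CCR6, was below background on all PBS arrays (median 20.2) and had 983.8 to 6419 (median 3512) with both stimuli, at least 29.0-fold higher (adjusted p = 2e-15). With both stimuli its mean intensity was 6151 in set 1 and 1088 in set 2. CCL3 and its near-identical copies CCL3L1 and CCL3L3 rose by 4.34, 4.31 and 3.94, and their probes may share transcripts. CCL19, a ligand of CCR7, rose by 4.23. CXCL9 was at least 10.4-fold higher, from below background on all PBS arrays to 186.8 to 3804 (median 1666), with a mean intensity of 219.4 in set 1 and 3370 in set 2. CXCL8, the neutrophil attractant, had 5169 to 8514 (median 5971) already under PBS and 32080 to 49020 (median 45790) with both stimuli. The CXCL8 groups did not overlap, and the log2 change was 2.81 ± 0.16 (adjusted p = 4.28e-16). CCL23 fell by 1.74 on the log2 scale, and CXCL12, a ligand of CXCR4, fell by 0.30.

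Genes of the NF-kB pathway, among them many of its own inhibitors, rose in nearly every case. Of 21 tested, 20 rose and 0 fell (21 and 0 with no adjustment, at p under 0.05), for a median of 1.96. For SOD2, the mitochondrial superoxide dismutase, intensities went from 693 to 1624 (median 1223) to 18890 to 27450 (median 23030), a log2 change of 4.24 ± 0.16 (adjusted p = 3.38e-21). A second probe gave 4.76, and a dim one was above background on no PBS array and on all 8 LPS+TGFβ1 arrays. TNFAIP3, which encodes the deubiquitinase A20 that ends NF-kB signalling, went from 298.8 to 391.7 (median 348.0) to 4814 to 7814 (median 6215), a log2 change of 3.98 ± 0.11 (adjusted p = 2.16e-25). ZC3H12A, a nuclease that degrades cytokine transcripts, rose by 4.07 ± 0.13. No array of 1 group reached the other group in these 3 genes. BCL3, NFKBIZ and NFKB2 rose by 3.52, 3.17 and 2.80. The subunit RELA, with a log2 change of 0.26, was the gene of the list that did not pass the test (adjusted p = 0.0834). Compared with LPS alone, 1 of the 21 genes was higher and 8 were lower, where 8.19% and 10.1% of all probes were.

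The receptor complex for LPS changed in some of its parts. Of 21 tested genes of the TLR4 receptor, its adaptors and kinases, 13 rose and 2 fell (median 0.31). CD14, the receptor that hands LPS to the complex, went from 149.5 to 437 (median 341.4) to 6411 to 10430 (median 9171), a rise of 4.74 ± 0.20 (adjusted p = 3.83e-20). LY96, which encodes MD-2, rose by 3.38 ± 0.19, from a median of 79.8 to a median of 1282. IRAK2, a kinase of the MyD88 branch, rose by 3.08 ± 0.22 and lay below LPS alone by -1.25 (adjusted p = 8.32e-05). TLR4 itself had 75.8 to 249 (median 168.5) under PBS and 50.8 to 303.2 (median 143.8) with both stimuli. The TLR4 groups covered the same range, and the log2 change was -0.11 ± 0.31 (adjusted p = 0.828). Its sign differed between set 1 (-0.30) and set 2 (0.29). MYD88 rose by 1.32 and TICAM1, which encodes TRIF, by 1.16. TAB1, an adaptor of the kinase TAK1, fell by 0.60.

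Every tested interferon-stimulated antiviral gene rose. All 41 passed the test and rose at least 2-fold, with a median of 3.15 and a range from 1.28 for ADAR to 6.48 for IFI44L, and for all 41 the 8 LPS+TGFβ1 arrays lay above the 8 PBS arrays, as 9.28% of all tested probes did. IFI44L had 28.5 to 43.9 (median 34.7) under PBS and 3472 to 16010 (median 9169) with both stimuli (log2 change 6.48 ± 0.39, adjusted p = 1.27e-15). MX1, a GTPase that blocks replication of many viruses, went from 285.8 to 771.1 (median 352.2) to 15230 to 39040 (median 22680), a rise of 5.66 ± 0.30. IFI27 and IFI44 rose by 6.11 ± 0.47 and 5.79 ± 0.30. The sensor of viral RNA IFIH1 rose by 3.14, ISG15 by 4.18, and the oligoadenylate synthetases OAS1 and OAS2 by 4.02 and 4.68.

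The sets differed in these genes. Over the 41 genes the median log2 value of an array was 7.68 to 8.22 under PBS. With both stimuli it was 11.14 to 11.39 on the 4 arrays of set 1 and 12.51 to 12.80 on the 4 arrays of set 2. The median rise of the list was accordingly 2.30 in set 1 and 3.87 in set 2. Taken chip by chip it ranged from 2.33 to 3.82. In LPS alone the median log2 value was 10.91 to 11.15 in set 1 and 12.96 to 13.22 in set 2, and with TGFβ1 alone 7.73 to 8.18 over both sets. By limma 0 of the 41 genes were called higher and 0 lower with both stimuli than with LPS (0 and 1 at an unadjusted p under 0.05), and their median difference from LPS was 0.07. What sets the arrays apart was not tested.

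**Figure D3:**
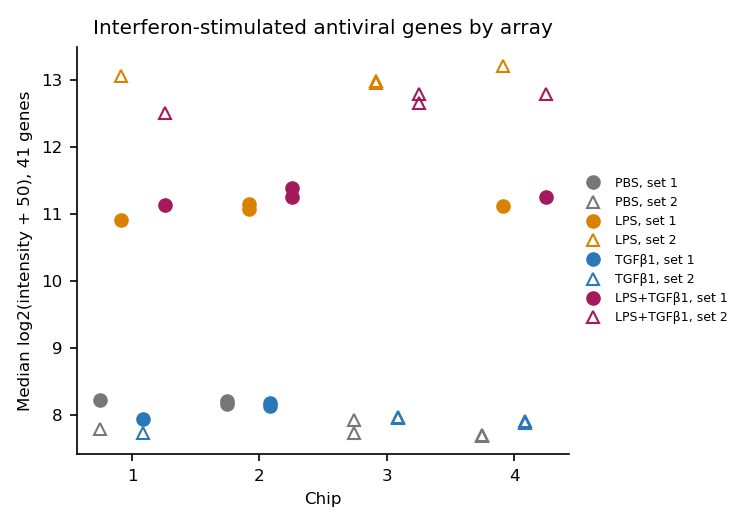
Median log2(intensity + 50) over 41 interferon-stimulated antiviral genes on each of the 32 arrays, by chip, with filled circles for set 1 and open triangles for set 2. PBS and TGFβ1 arrays lie near 8, and LPS and LPS+TGFβ1 arrays lie at 11 to 13, in 2 steps that follow the sets: chip 2 holds only set 1 arrays, chip 3 only set 2 arrays, and chips 1 and 4 hold both.

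Promoters of these rising genes often carried the letters that interferon-activated factors bind. RefSeq promoter windows of GRCh38.p14, from 250 bases before to 50 after the annotated start, were searched on both strands for the interferon motif, GAAA and GAAA with any 2 bases between them, and for the NF-kB motif, GGGA and CC with any 4 bases between them. The former is the core of the interferon-stimulated response element and the latter a form of the NF-kB site. Of the 41 antiviral genes 32 had a window, and 24 of these (75%) held the interferon motif, against 4.38% of all 27305 genes in the table and 4.08% of the genes of all tested probes that had a window. Of the 21 NF-kB pathway genes 19 had a window, and 17 (89.5%) held the NF-kB motif, against 29.0% of all genes and 36.7% of the tested ones. Outside this list the NF-kB motif was in 17 of 32 TGFβ-SMAD targets with a window (53.1%) and in 12 of 32 antiviral genes (37.5%). It was in 6 of 9 CXC chemokines (66.7%), 3 of 9 CC chemokines (33.3%) and 7 of 14 cytokines (50%). The interferon motif was in 3 of 32 TGFβ-SMAD targets, 2 of 9 CXC chemokines, 0 of 9 CC chemokines and 3 of 14 cytokines. Among 32 DNA replication genes with a window, 0 held the interferon motif and 8 (25%) the NF-kB motif. A match is a description of the letters and not a bound site. The windows of 4 genes are shown because they hold these motifs in different arrangements, with the matches in capitals. CXCL10 (chr4:76023448-76023747, minus strand) has 1 match of the interferon motif and 2 of the NF-kB motif. IFI44L (chr1:78620198-78620497, plus strand) and IFIT1 (chr10:89392373-89392672, plus strand) each have 2 matches of the interferon motif, those of IFIT1 on the opposite strand. TNFAIP3 (chr6:137867009-137867308, plus strand) has 1 match of the NF-kB motif, also on the opposite strand. IFIT1, which rose by 5.56 and encodes a protein that binds foreign RNA ends, was chosen after its value was seen.
CXCL10: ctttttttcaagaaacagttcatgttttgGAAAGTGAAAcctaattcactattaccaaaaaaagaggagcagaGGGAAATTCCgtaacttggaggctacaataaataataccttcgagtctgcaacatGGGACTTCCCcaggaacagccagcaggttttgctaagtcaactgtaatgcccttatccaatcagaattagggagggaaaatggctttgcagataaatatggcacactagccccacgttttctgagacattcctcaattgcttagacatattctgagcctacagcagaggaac
IFI44L: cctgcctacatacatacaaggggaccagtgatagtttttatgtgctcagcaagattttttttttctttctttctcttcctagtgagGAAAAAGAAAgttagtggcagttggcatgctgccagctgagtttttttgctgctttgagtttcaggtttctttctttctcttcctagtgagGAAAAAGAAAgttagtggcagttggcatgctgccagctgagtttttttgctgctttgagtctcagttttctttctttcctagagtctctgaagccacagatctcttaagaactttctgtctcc
IFIT1: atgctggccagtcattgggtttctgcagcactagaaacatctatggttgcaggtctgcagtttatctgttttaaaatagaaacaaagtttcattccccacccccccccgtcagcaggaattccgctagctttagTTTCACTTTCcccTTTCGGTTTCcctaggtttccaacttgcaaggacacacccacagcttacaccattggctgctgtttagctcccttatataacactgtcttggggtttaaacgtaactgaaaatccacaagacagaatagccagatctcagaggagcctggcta
TNFAIP3: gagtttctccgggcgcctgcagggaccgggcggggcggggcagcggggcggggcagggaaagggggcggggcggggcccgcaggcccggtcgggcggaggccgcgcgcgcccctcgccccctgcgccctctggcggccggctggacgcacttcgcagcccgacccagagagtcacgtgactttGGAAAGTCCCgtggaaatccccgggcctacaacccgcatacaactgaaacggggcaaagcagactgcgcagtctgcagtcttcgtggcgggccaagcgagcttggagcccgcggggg

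Genes linked to interferon gamma and antigen presentation rose as well, by smaller amounts. Of 16 tested interferon gamma-type and guanylate-binding genes 14 rose and 1 fell (median 1.16). GBP2, a GTPase that attacks vacuoles holding microbes, had 59.1 to 439.3 (median 96.0) under PBS and 1926 to 2880 (median 2473) with both stimuli, a rise of 3.53 ± 0.31, and it was below LPS alone by -1.15 (adjusted p = 0.00743). For GBP4 the log2 change was 3.79 ± 0.51 over all arrays, set 1 giving 2.52 and set 2 giving 4.95. GBP1 was at least 7.54-fold higher, and its mean intensity with both stimuli was 276.2 in set 1 and 1426 in set 2. The median change of the list was 1.04 in set 1 and 1.60 in set 2. Among 11 interferon regulatory factors and STATs, 7 rose and 3 fell. IRF7, which amplifies type I interferon, rose by 3.45 ± 0.23, from a median of 72.3 to a median of 1505, although a dimmer probe of IRF7 was above background on no PBS array and on 6 of 8 LPS+TGFβ1 arrays. IRF9, the DNA-binding part of the interferon response complex, rose by 2.20 ± 0.12. IRF8, a factor of monocyte development, fell by 0.78.

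Of 14 tested genes of MHC class II presentation 11 rose and 0 fell (11 and 0 at an unadjusted p under 0.05, median 0.89), and of 18 of class I presentation 14 rose and 0 fell (16 and 0 unadjusted, median 1.00). The class II median was 0.54 in set 1 and 1.27 in set 2, and the class I median 0.48 and 1.36. IFI30, a thiol reductase that prepares antigens in lysosomes, had 24.5 to 224.6 (median 142.0) under PBS and 1018 to 3765 (median 2467) with both stimuli, a rise of 3.81 ± 0.44. HLA-DRA, the shared alpha chain of HLA-DR, went from 178.3 to 618.7 (median 457.3) to 795.1 to 3517 (median 2056), a rise of 2.09 ± 0.37 (adjusted p = 1.59e-05). CD74, the invariant chain, rose by 1.60 ± 0.18. HLA-DQB1 was below background on all 16 arrays. TAP1, which carries peptides into the endoplasmic reticulum, rose by 2.13 ± 0.29 (set 1, 1.47 and set 2, 2.77). PSMB9, a subunit of the immunoproteasome, rose by 1.54 ± 0.42 (adjusted p = 0.00323), and B2M, the light chain of class I, by 0.67 ± 0.10. For IFI30, HLA-DRA, TAP1 and B2M no LPS+TGFβ1 array was as low as a PBS array. Genes of the HLA-DR beta chains are near-identical copies, and their probes may share transcripts.

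Genes that TGFβ is known to control changed as well. Of 37 tested genes listed as targets of TGFβ and SMADs, 21 rose and 6 fell (median 0.58). ALOX5, the enzyme that starts leukotriene synthesis, had 490.1 to 643.8 (median 581.1) under PBS and 6855 to 9218 (median 7705) with both stimuli. All arrays of each group lay close together, and the log2 change was 3.68 ± 0.08 (adjusted p = 7.59e-27). It stood at 3.57 with TGFβ1 alone and 0.29 with LPS alone. AXL, a receptor kinase for the clearing of dying cells, went from a median of 234.1 to 1295 to 5162 (median 2493), a rise of 3.44 ± 0.38. BHLHE40, a transcriptional repressor, rose by 3.2 ± 0.20 and was above LPS by 0.93 (adjusted p = 0.000687) and above TGFβ1 by 1.18 (adjusted p = 1.03e-05). TGFBI, a secreted matrix protein named for its response to TGFβ, went from 3418 to 4026 (median 3788) to 13180 to 19750 (median 16840), a rise of 2.14 ± 0.10 (adjusted p = 4.55e-18). SMAD7, the feedback inhibitor of the receptor, had 25.2 to 63.4 (median 46.6) under PBS and 312.1 to 500.4 (median 352.0) with both stimuli, a rise of 2.13 ± 0.11, where each stimulus alone stood at 1.38 (LPS) and 1.23 (TGFβ1). ID1, a regulator induced by bone morphogenetic proteins, had a log2 change of -0.20 and was not called, and SKIL was below background on all 16 arrays. TIMP3, an inhibitor of metalloproteinases, and COL4A1, a basement membrane collagen, fell by 2.40 and 1.46.

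Set against LPS alone, 16 of these 37 targets were higher with both stimuli and 6 lower, where 8.19% and 10.1% of all probes were. Against TGFβ1 alone 11 were higher and 9 lower, where 14.9% and 16.5% of all probes were. Of 21 tested ligands, receptors and SMADs of the pathway 6 rose and 3 fell (median 0.05), shares not far from the 18% and 21.9% of all probes. The receptors TGFBR1, ENG and BMPR2 rose by 1.63 ± 0.10, 1.59 ± 0.11 and 1.43 ± 0.14. TGFBR1 had 32.9 to 67.9 (median 55.3) under PBS and 215.8 to 372.8 (median 255.6) with both stimuli. The signal carriers SMAD3 and SMAD4 fell by 0.92 and 0.43. The probe for TGFB1 was below background on all 16 arrays.

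Matrix and protease genes followed different courses within their lists. Of 28 tested extracellular matrix genes 13 rose and 3 fell (median 0.31), and of 20 metalloproteinases and inhibitors 13 rose and 3 fell (median 0.74). COL15A1, a collagen near basement membranes, went from 47.0 to 89.2 (median 56.8) to 1569 to 2370 (median 1808), a rise of 4.10 ± 0.11 (adjusted p = 1.34e-25). SPP1, which encodes osteopontin, rose by 4.10 ± 0.22, from a median of 551.1 to a range of 6228 to 16150 (median 9908). TNC had a log2 change of 0.08 and was not called, and COL1A1 and LUM were below background on all 16 arrays. ADAMDEC1, a secreted protease of macrophages, rose by 3.78 ± 0.40 and lay below LPS alone by -1.44 (adjusted p = 0.00932). PLAUR, the urokinase receptor, rose by 3.29 ± 0.09, and MMP14, a membrane-bound activator of other proteases, by 2.52.

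Genes for lipid mediators, lipid uptake and complement held some of the largest rises outside the inflammatory lists. ALOX5AP, the partner that presents arachidonic acid to 5-lipoxygenase, had 1321 to 2902 (median 2268) under PBS and 26430 to 34130 (median 30450) with both stimuli, a rise of 3.77 ± 0.15 (adjusted p = 6.5e-21). It was above LPS by 1.66 (adjusted p = 1.08e-10) and above TGFβ1 by 0.66 (adjusted p = 0.000498). PTAFR, the receptor of platelet-activating factor, was at least 9.31-fold higher. LTC4S, which makes leukotriene C4 further along, had 349.4 to 1757 (median 1153) under PBS and 546.9 to 1281 (median 683.5) with both stimuli, and the change of -0.52 ± 0.26 did not pass the test (adjusted p = 0.116). PTGS2, the inducible cyclooxygenase, had a log2 change of -0.01. Of the 22 tested genes of this list 10 rose and 3 fell (median 0.09, with 0.30 in set 1 and 0.20 in set 2). Among 11 scavenger and lipid uptake receptors 6 rose and 2 fell (median 0.68). CD36, a receptor for oxidised lipids, rose by 2.36 ± 0.14, and VLDLR, the receptor for very-low-density lipoprotein, fell by 2.76 ± 0.19, from 1651 to 2639 (median 2007) to 239.2 to 307.1 (median 256.8).

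None of the 8 PBS arrays had C3, the central component of complement, above background (median 30.9), and the level of C3 was 2780 to 4385 (median 3120) with both stimuli, at least 36.8-fold higher (adjusted p = 4.31e-25). It was above background on all arrays with a single stimulus too, with medians of 1819 for TGFβ1 alone and 155.6 for LPS alone. C5, from which the attractant C5a is cut, fell by 1.92 ± 0.26, from 1767 to 2883 (median 2114) to 362.3 to 859.2 (median 529.3). The receptor for C3a, C3AR1, was at least 2.55-fold higher. In all, 7 of 17 tested complement genes rose and 4 fell (median 0.02), where 18% and 21.9% of all probes did. The median of the complement list was 0.29 in set 1 and 0.22 in set 2.

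Surface molecules of monocytes and macrophages rose broadly. Of 31 tested, 23 rose and 0 fell (24 and 1 with no adjustment, at p under 0.05), for a median of 1.00. FPR1, a receptor for bacterial formyl peptides, was below background on all PBS arrays (median 21.1) and had 452.4 to 1154 (median 845.1) with both stimuli, at least 8.94-fold higher (adjusted p = 1.56e-19). CD83 and CD80, markers of antigen-presenting cells, rose by 3.32 ± 0.15 and by at least 5.50-fold, and both were lower than with LPS alone, by -0.87 (adjusted p = 5.55e-05) and -1.61 (adjusted p = 9.92e-08). CSF1R, the receptor of the macrophage growth factor, went from 1509 to 2465 (median 1792) to 7343 to 10510 (median 9259), a rise of 2.22 ± 0.12. ITGAM, which encodes CD11b, rose by 1.00 ± 0.15. CD163, a haemoglobin scavenger, was at least 1.72-fold higher. MSR1 and TREM1 were below background on all 16 arrays.

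Of 26 costimulatory and adhesion molecules 20 rose and 3 fell (median 0.65), and 4 were higher and 10 lower than with LPS alone, where 8.19% and 10.1% of all probes were. CD40, which receives help from T cells, rose by 2.66 ± 0.22, from a median of 70.3 to a range of 603.6 to 928.4. VCAM1 was at least 4.35-fold higher. ITGA4 and ICAM3, both adhesion molecules of leukocytes, fell by 0.89 and 0.83. Among 18 anti-inflammatory and alternative activation genes 8 rose and 2 fell (median 0.19, with 0.38 in set 1 and 0.31 in set 2). IL10RA, the receptor for interleukin-10, rose by 2.39 ± 0.23. IL1RN, the natural blocker of the interleukin-1 receptor, rose by 1.95 ± 0.44 (adjusted p = 0.000495), a value made up of 0.58 for set 1 and 3.28 for set 2. IL10 had 2075 to 4237 (median 2834) under PBS and 2287 to 4471 (median 3562) with both stimuli. Its groups overlapped widely, and the change of 0.23 ± 0.14 did not pass the test (adjusted p = 0.204).

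Lysosomal and oxidative genes rose in part by large amounts. Of 29 lysosomal genes 22 rose and 2 fell (median 0.65). DNASE2, the acid nuclease of lysosomes, went from 99.2 to 169.3 (median 115.5) to 4585 to 6437 (median 5427), a rise of 4.97 ± 0.18 (adjusted p = 5.95e-22), and stood at 4.50 with TGFβ1 alone and 2.36 with LPS alone. LAMP3, a lysosomal membrane protein of mature dendritic cells, was at least 19.2-fold higher. CTSH, a cathepsin, rose by 3.47 ± 0.13 to 19900 to 31000 (median 27110). LAMP1 and GUSB fell by 0.45 and 0.34. Of 10 NADPH oxidase genes 5 rose and 1 fell. CYBB, the catalytic subunit, had 167.3 to 281 (median 209.2) under PBS and 3309 to 5892 (median 4145) with both stimuli, a rise of 4.05 ± 0.14 (adjusted p = 2.79e-22). NCF1 rose by 3.40 ± 0.41, and its near-identical copy NCF1C by 3.38 ± 0.37, so their probes cannot be read apart. Of 19 oxidant defence enzymes 12 rose and 2 fell (median 0.48). HMOX1, which breaks down haem, was at least 11.5-fold higher. CAT, which encodes catalase, fell by 2.29 ± 0.16, from 1630 to 3302 (median 2039) to 321.2 to 562.2 (median 401.9).

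Transcripts of glycolysis and hypoxia genes rose more often than those of oxidative phosphorylation, and metabolism itself was not measured. Of 32 glycolysis and hypoxia genes 22 rose and 1 fell (median 0.56), while of 33 tested subunits of oxidative phosphorylation 2 rose and 4 fell (median 0.01). SLC2A6 and SLC2A3, transporters of hexoses, rose by 3.24 ± 0.17 and 2.00 ± 0.09. SLC2A3 had 339.7 to 418.1 (median 380.0) under PBS and 1434 to 1806 (median 1723) with both stimuli. ADM, a peptide hormone induced by low oxygen, rose by 2.37 ± 0.16, VEGFA by 1.87 and HIF1A by 1.29. GAPDH, with 9271 to 18480 (median 15800) under PBS and 14080 to 19390 (median 16360) with both stimuli, had a change of 0.15 ± 0.10 (adjusted p = 0.238). Among 11 housekeeping genes 3 rose and 3 fell, where 18% and 21.9% of all probes did, with a median of 0.02. The 33 subunits of oxidative phosphorylation stayed between -0.43 for NDUFS1 and 0.56 for NDUFA9.

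Genes of immature myeloid cells fell in most cases. Of 26 tested myeloid progenitor and granule genes, 20 fell and 3 rose, with a median of -1.16 against -0.04 over all probes, and 14 of them fell at least 2-fold. SERPINB10, a protease inhibitor of bone marrow cells, had 671.9 to 1957 (median 1014) under PBS and 34.1 to 99 (median 64.9) with both stimuli, where 6 of 8 arrays were above background. Its log2 change was -3.34 ± 0.21 (adjusted p = 5.96e-15). MS4A3, a membrane protein of granulocyte and monocyte precursors, went from 2488 to 5458 (median 4270) to 218.2 to 1025 (median 420.9), a change of -3.05 ± 0.33, and its other probes gave -2.85 and -1.38. MS4A3 was higher with both stimuli than with LPS alone, by 0.99 (adjusted p = 0.0319). KIT, the receptor of stem cell factor, had 331 to 2878 (median 2107) under PBS and 53.1 to 228 (median 130.3) with both stimuli, a change of -2.87 ± 0.44, with -1.84 in set 1 and -3.25 in set 2. The low PBS values of KIT were those of set 1. F13A1, a clotting factor subunit made by monocytes, fell by 2.66 ± 0.17.

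MPO, the myeloperoxidase of azurophil granules, had 130.9 to 171.3 (median 147.2) under PBS and was below background on all 8 LPS+TGFβ1 arrays, at least 2.18-fold lower (adjusted p = 3.21e-19). With LPS alone it was above background on 1 of 8 arrays. Transcripts of other granule enzymes fell with it, PRTN3 by 2.19, CTSG by 1.27 and AZU1 by 0.84. The factors GFI1 and MYB and the receptor FLT3, all of progenitor cells, fell by 2.32, 1.90 and 2.31. CLEC5A, a receptor that signals through DAP12, was 1 of the 3 genes of its list that rose. Its rise was 3.81 ± 0.18, from a median of 66.0 to 1004 to 1516 (median 1285). CEBPB and CEBPD, factors of mature myeloid cells, rose by 0.69 and 0.49, and CEBPA fell by 0.40 ± 0.06. In these bulk samples fewer cells of a type and less RNA in each cell cannot be told apart.

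Other strong falls lay outside this list. BMP8B, a secreted factor of the bone morphogenetic protein family, had 3549 to 5693 (median 4417) under PBS and 211.4 to 565.5 (median 360.3) with both stimuli, and its change of -3.46 ± 0.31 was the largest among probes with a gene symbol (adjusted p = 3.91e-11). CCNA1, a cyclin found in germ cells and in leukaemia lines, went from 1087 to 1530 (median 1401) to 107.6 to 146.5 (median 133.1), a change of -2.95 ± 0.11 (adjusted p = 1.3e-21). RET, a receptor kinase, fell by 2.77 ± 0.22 and EBF3, a transcription factor, by 2.72 ± 0.16. TMOD1, which caps actin filaments, fell by 2.78 ± 0.28 and PDE7B, a cyclic AMP phosphodiesterase, by 2.75 ± 0.29. IRAG2, a membrane protein of lymphoid and myeloid cells, fell by 2.70 ± 0.20 and RBKS, the ribokinase, by 2.68 ± 0.26.

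Proliferation genes fell by small and even amounts. Of 35 tested DNA replication and S phase genes 31 fell and 0 rose, the same counts as before adjustment at p under 0.05, for a median of -0.59, and of 34 mitosis genes 27 fell and 0 rose (29 and 0 unadjusted), with a median of -0.45. CDT1, which loads the replicative helicase, went from 1167 to 1528 (median 1364) to 550.3 to 730.8 (median 639.8), a change of -1.04 ± 0.13 (adjusted p = 7.99e-08). LIG1, the ligase of replication, fell by 0.98 ± 0.13 and MCM2, a helicase subunit, by 0.91. CENPA, the histone of centromeres, fell by 0.99 ± 0.13, and MKI67, the proliferation marker, by 0.39 ± 0.06, from 169.1 to 214.4 (median 193.9) to 120.7 to 151 (median 134.5). In each of these genes with given ranges the groups did not overlap. ORC6 and AURKB had log2 changes of 0.14 and -0.06 and were not called. The median fall of the replication genes was -0.39 in set 1 and -0.62 in set 2.

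Regulators of the first growth phase did not move as 1 group, with 5 rises and 9 falls among 22 tested genes. Over all probes 18% rose and 21.9% fell. CCND1, which encodes cyclin D1, rose by 3.77 ± 0.23, from 40.9 to 89.2 (median 65.1) to 852.8 to 2514 (median 1554). MXD1, an antagonist of MYC, rose by 2.65 ± 0.15 and the inhibitor CDKN1A by 1.57. MYC had 883.5 to 1709 (median 1129) under PBS and 980.1 to 1409 (median 1171) with both stimuli. Its groups overlapped and its change was 0.02 ± 0.12 (adjusted p = 0.919). With LPS alone MYC stood at -0.77 and with TGFβ1 alone at -0.45, and the level with both stimuli was above each, by 0.79 (adjusted p = 5.69e-06) and 0.47 (adjusted p = 0.00185). Of 20 apoptosis and survival genes 11 rose and 2 fell. CASP1, the protease that releases interleukin-1 beta, rose by 2.08 ± 0.18 and CASP5 was at least 5.20-fold higher, while BCL2, which protects from apoptosis, fell by 1.42 ± 0.10.

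**Figure D4:**
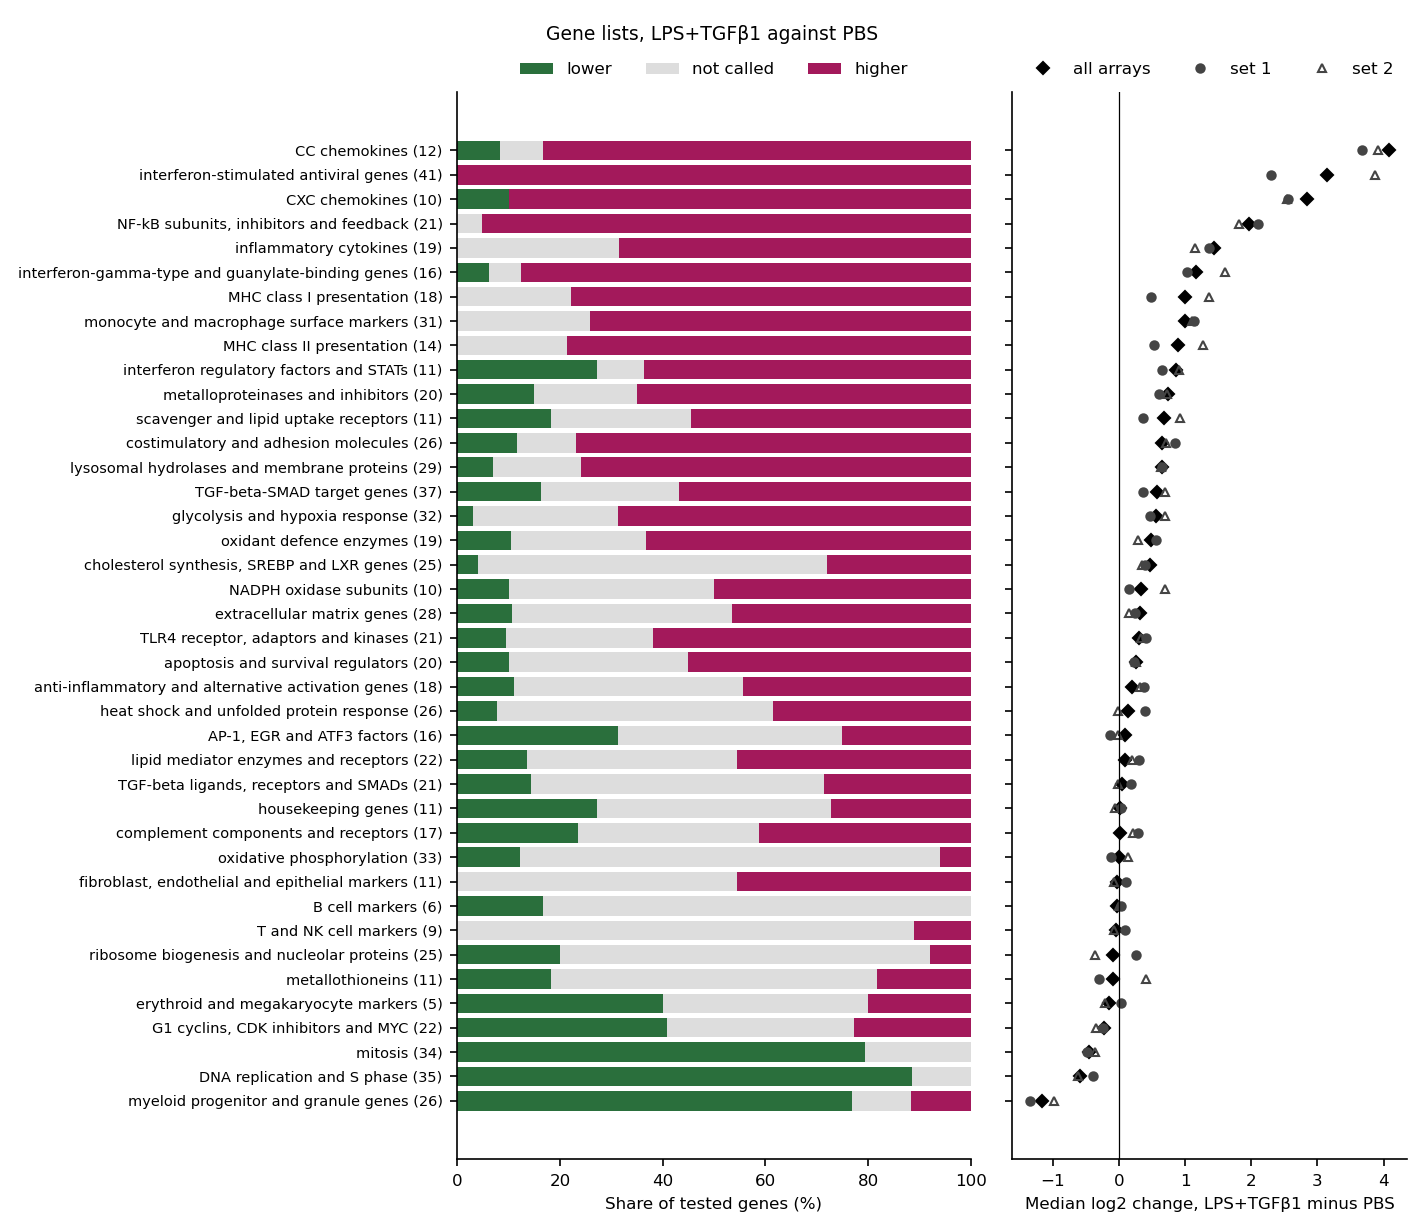
Left, the share of tested genes of each of 40 lists (number tested in brackets) called higher, lower or not called with LPS+TGFβ1 against PBS. Right, the median log2 change of the list over all arrays (diamonds), in set 1 (filled circles) and in set 2 (open triangles). Chemokine and antiviral lists lie at the top with medians up to 4.08, the replication, mitosis and progenitor lists at the bottom with medians down to -1.16, and the 41 antiviral genes show 2.30 in set 1 against 3.87 in set 2.

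Some genes stood outside the level of every other treatment when both stimuli were given. For 42 probes (0.228% of those tested) with 35 gene names, LPS+TGFβ1 was at least 2-fold above PBS, LPS and TGFβ1, each with an adjusted p under 0.05, and for 11 probes (0.0598%) with 8 names it was at least 2-fold below all of them. CADM1, an adhesion molecule, had 21.4 to 60 (median 40) under PBS and 1195 to 2333 (median 1906) with both stimuli, a rise of 4.37 ± 0.15 over PBS. It was above LPS by 3.18 (adjusted p = 1.46e-17) and above TGFβ1 by 2.76 (adjusted p = 1.92e-16), the largest distance to the nearest group among the 42 probes. FCRLA, an intracellular protein related to Fc receptors, was above background on no array with PBS, LPS or TGFβ1 and on all 8 with both stimuli, at 178.9 to 549.6 (median 340.0). DSE, an epimerase of dermatan sulfate, and ACKR3, a decoy receptor for CXCL12, rose by 3.44 ± 0.30 and 3.93 ± 0.16 over PBS and lay at least 2.12 and 1.90 above the nearest group. CD69, a marker of early activation of lymphocytes, was at least 3.92-fold higher than under PBS, above LPS by 1.96 and above TGFβ1 by 1.76.

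IGFBP5, another binder of insulin-like growth factors, was above background on 5 of 8 LPS+TGFβ1 arrays, and on no PBS array. Its mean intensity with both stimuli was 662 in set 1 and 39.2 in set 2. Other members had been described with their lists, such as SPP1, FPR1, COL15A1 and CCND1, and further ones include MERTK, a receptor for apoptotic cells, and TLR1, which were 2.21 and 2.43 above PBS and were named after their values were seen.

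Among the genes lowest with both stimuli was STING1, the adaptor of the cytosolic DNA sensor cGAS. It had 7751 to 13140 (median 10320) under PBS and 1227 to 2907 (median 2013) with both stimuli, and no LPS+TGFβ1 array came near a PBS array. Its log2 change was -2.40 ± 0.23 (adjusted p = 1.19e-10), and it lay below LPS by -1.04 (adjusted p = 0.00115) and below TGFβ1 by -1.30 (adjusted p = 2.61e-05). BMP8B lay below LPS by -1.38 and below TGFβ1 by -1.80. SORBS3, an adaptor at cell contacts, changed by -1.83 ± 0.08, while a dim probe of it was above background on 0 PBS arrays and 1 LPS+TGFβ1 array. PPP1R27, PHACTR3, TARP, MYBPH and OXCT2 made up the rest of the named genes, with changes from -1.71 to -3.10 against PBS. TARP is read from the T cell receptor gamma locus and can share transcripts with it.

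**Figure D5:**
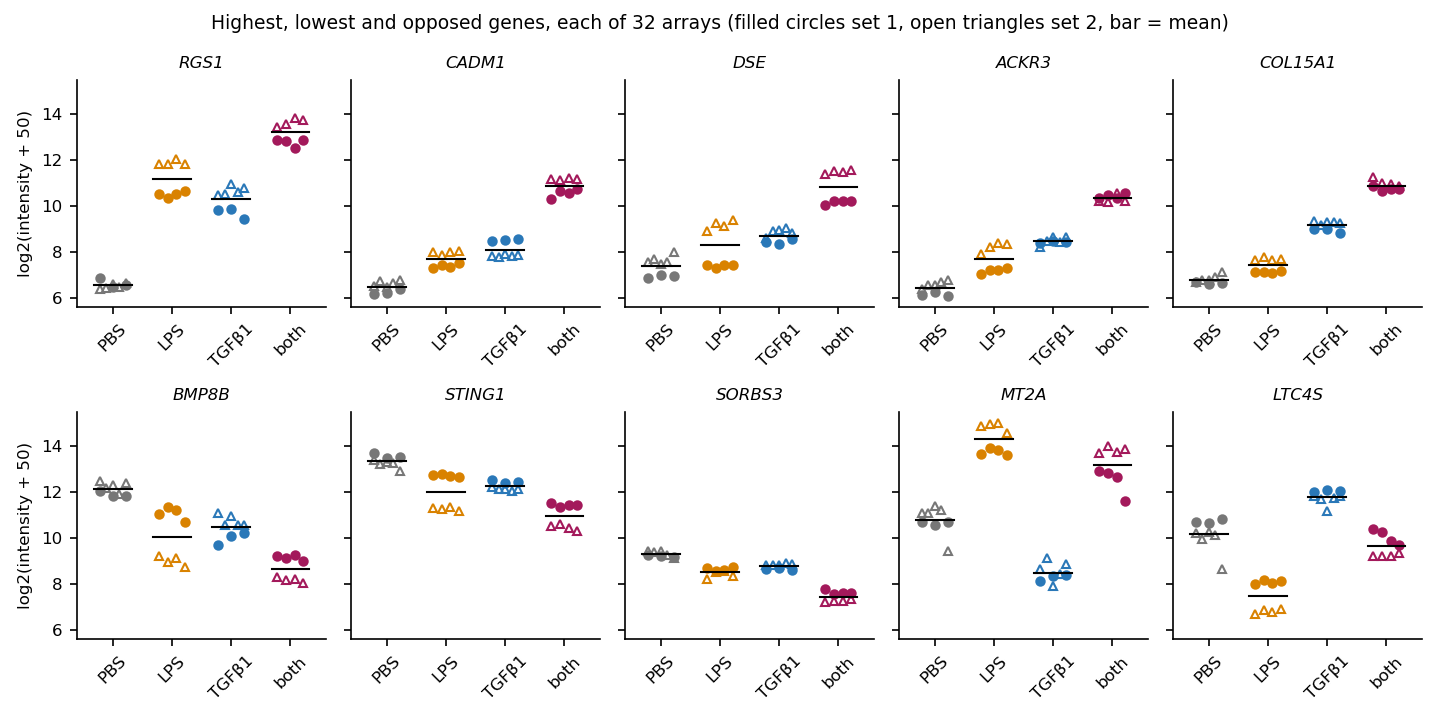
log2(intensity + 50) of 10 genes on each of the 32 arrays, with filled circles for set 1, open triangles for set 2 and a bar at each mean. RGS1, CADM1, DSE, ACKR3 and COL15A1 are highest with both stimuli, BMP8B, STING1 and SORBS3 are lowest, and for MT2A and LTC4S the level with both lies between those of the single stimuli.

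Where the single stimuli pulled in opposite directions, the outcome with both was mixed. LPS alone and TGFβ1 alone were both called, with opposite signs and at least 1.5-fold each, for 88 probes (0.479%) with 73 gene names. The rule uses the PBS arrays, so the counts that follow are a description. Of 27 probes raised by LPS and lowered by TGFβ1, 14 were higher with both stimuli than with PBS and 3 lower. Of 61 lowered by LPS and raised by TGFβ1, 14 were lower with both and 16 higher, and 41 of the 88 were not called. MT2A, a metallothionein that binds zinc and copper, stood at 3.53 with LPS and -2.29 with TGFβ1, and with both at 2.38 ± 0.29 (adjusted p = 2.51e-08). Its intensities were 651.6 to 2627 (median 1872) under PBS and 3043 to 16170 (median 10500) with both stimuli, without overlap. LTC4S stood at -2.71 with LPS and 1.63 with TGFβ1, and its change with both was the small one given above. IL18RAP, a chain of the interleukin-18 receptor, and DRAM1, a lysosomal protein of autophagy, stood at 3.22 and 3.32 with LPS and at -1.26 and -0.70 with TGFβ1, and rose with both by 1.72 ± 0.16 and 1.93 ± 0.10. FEZ1 and EXOG, an adaptor of microtubule transport and a mitochondrial nuclease, rose with both by 1.11 ± 0.11 and 1.86 ± 0.26. TGFBI stood at -0.66 with LPS and 1.39 with TGFβ1, and was above both single stimuli when they were combined, by 2.80 and 0.74.

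Markers of a monocytic cell were present in both groups. CD68, CSF1R, SPI1, CEBPA, ITGAM, ITGAX, LYZ, FCGR1A, CD4 and CD14 were above background on all 16 arrays. MPO, which was also on this marker list, was above background on all 8 PBS arrays and on 0 LPS+TGFβ1 arrays. CD33, the remaining marker, had no tested probe. SPI1, the master factor of myeloid cells, rose by 1.19 ± 0.15, CD68 by 0.68 ± 0.13 and CD4 by 0.65 ± 0.09, while LYZ, which encodes lysozyme, fell by 1.08 ± 0.17. FCGR1A, the high-affinity Fc receptor, had a change of 0.35 ± 0.22 that did not pass the test (adjusted p = 0.225). Defining markers of other lineages were mostly dark. Of 13 T and NK cell markers measured 11 were below background on all 16 arrays, as were 5 of 8 B cell markers, 10 of 13 erythroid and megakaryocyte markers and 11 of 18 fibroblast, endothelial and epithelial markers. The summed intensity of the T and NK list was 641.9 to 960.8 under PBS and 976 to 1415 with both stimuli, where NKG7, a protein of cytotoxic granules, was above background and rose by 0.85 ± 0.13. The fibroblast, endothelial and epithelial list summed to 1766 to 2635 and 3582 to 4988, with PECAM1, which monocytes also make, rising by 1.01 ± 0.11, CDH1 at least 2.26-fold higher and 1 probe of DCN at least 2.23-fold higher. The other DCN probes were not called (adjusted p = 0.389 and 0.962), with at most 3 of 8 arrays of a group above background. The B cell list summed to 284.4 to 420.9 and 197.7 to 318.8, and the erythroid and megakaryocyte list to 558 to 764.5 and 258.6 to 441.5. Whether other cells add to any of the results was not tested.

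For 47 of the 162 genes taken up for naming the changes in the sets differed by more than 1 log2 unit. The sets were drawn from the same arrays, so values within a set are no independent support.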

How the data were processed

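The authors deposited a value table of linear probe intensities from Illumina beadchips, 1 column for each of 32 arrays. BeadStudio 3.2 appears in the submitters' processing notes with no stated role. How background and scale were treated is not given in the sources used here. Column medians lie between 34.5 and 59.3, upper quartiles between 345 and 381, and the lowest value is -35.4. The table was neither log-transformed nor centred by probe. A second deposited table was not used, because its 64 value columns carry numbers that match no label.

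Values were taken as log2(intensity + 50). The 25% of probes with the lowest mean were left out, which kept 18388 of 24518. The platform annotation gives 1 symbol for 21826 probes and none for 2692. Limma 3.58.1 in R 4.3.3 fitted the means of the 4 treatments over 32 arrays with lmFit and eBayes, and p-values were adjusted by Benjamini-Hochberg over all tested probes at a threshold of 0.05. A probe counted as above background when it exceeded the mode of the dim values by 3 SD, the SD taken from their lower side. A bound written as at least N-fold sets the brighter mean against the lowest level above background. The number of arrays limits the precision. Python 3.11.15 was used for promoters and plots. The limma step was tested on simulated data with independent normal noise. Those data held neither chips nor sets, so the test does not cover the calls under that structure.

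Genes came up for naming as the 15 largest rises and 15 largest falls whose sign held on each of the 4 chips, the 3 strongest called changes of each of 40 lists, up to 8 genes highest and 8 lowest with both stimuli, 6 opposed genes and a short set of well-known ones. Other list members are named as examples. A list takes the brightest probe of each gene. Members, lists and tests were chosen with earlier results of these data known. Alternatives were other offsets, floors, scalings and filters, blocks for chip, replicate number and set, array weights, fits within or without each chip, and a fit without PBS array 8.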

Additional observations from a re-analysis of the deposited data

Results flagged for a closer look

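In 19 of 324 groups, the PBS and the LPS+TGFβ1 arrays of 162 genes, the highest or lowest array lay far from the other 7, by the ratio of its gap to the range of its group. Chance gives such a gap in about 1 of 20 groups if the groups are independent. These groups share the same arrays, so that rate cannot tell whether their number exceeds chance. PBS array 8 accounts for 14 of the flagged groups. It was the lowest PBS array for ENG (ratio 0.582), PSMB9 (0.748), NDUFA9 (0.674), NDUFV1 (0.663), FBL (0.669), MT2A (0.58), MT1G (0.544), NKG7 (0.687), LTC4S (0.603), CD68 (0.615), SPI1 (0.529) and CEBPA (0.649), and the highest for BMPR2 (0.611) and HMMR (0.69). For PSMB9 its intensity was 429.7, with 905.7 on the nearest array, and for NKG7 214.4 with 461.5. PBS array 1 was the highest for ATF3 (0.72) and CXCL8 (0.64), where CXCL8 had 8514 with 6188 on the nearest array.

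With both stimuli, array 1 was the highest for ENG (0.642), array 2 the highest for SMAD7 (0.579) and array 7 the lowest for CD4 (0.672). CD4 had 429.6 on that array and 514.4 on the nearest one.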

How the results depend on the processing

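Of 3725 values of single genes under 23 alternatives, 3576 kept their side of the threshold. Another 129 lost the call, 46 of them within chip 1 and 51 within chip 4, and 19 gained it. A change of sign was counted only where the main fit or the alternative called the gene, which held for 1 value. Genes called in neither fit may have changed sign among the 3576. TLR4 turned to 0.29 within set 2, from -0.11 over all arrays, where it was not called (adjusted p = 0.828, by limma). The cause was not tested. Of 246 counts over all probes 211 stayed within 1.5 times. Within chip 1 and chip 4, which leave 2 arrays a group, the counts against PBS fell to 978 and 1015 higher and to 568 and 708 lower, with 258 at least 2-fold lower within chip 4. Those against LPS fell to 70 and 63 higher and 20 and 17 lower, and those against TGFβ1 to 474 and 506 higher and 209 and 257 lower. Genes highest with both stimuli then numbered 14 and 10, lowest 0 and 0, and opposed 10 and 12. The count lower than LPS was the least steady of the others. It was 1861 in the text, and 1196 with median scaling, 2861 with chip as a block, 3295 with set as a block, 2942 with array weights, 1108 without chip 1, 1019 without chip 3 and 3163 within set 2. Array weights gave 2590 higher than LPS, 106 highest and 40 lowest. A floor of 16 in place of the offset gave 772 at least 2-fold lower than PBS, 69 highest, 28 lowest and 141 opposed. An offset of 100 gave 7 lowest. Causes were not tested.

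Same-numbered PBS and LPS+TGFβ1 arrays lay on the same chip and had deviations that correlated at 0.126 to 0.46 for 7 of 8 numbers and at -0.20 for number 7, and 3 of 8 arrays correlated best with their own number. The arrays of number 7 belong to different sets. Since 1 pair did not exceed 0.1 and the labels do not say that a number marks a shared culture, the arrays were not taken as paired, and whether they are was not settled. The fit with the replicate number as a block called 3856 probes higher and 4807 lower than PBS, and 3227 lower than LPS. Without PBS replicate 8, 974 probes were at least 2-fold higher and 414 at least 2-fold lower than PBS, and 1 named gene lost its call. Genes near background have only bounds, whichever fit is used.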

Other observations

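Some stress and early-response genes were lower with both stimuli than with LPS alone. Of 16 tested AP-1, EGR and ATF3 factors 4 rose against PBS and 5 fell, where 18% and 21.9% of all probes did. In that list 8 were lower and 0 higher than with LPS (10 and 0 at an unadjusted p under 0.05, by limma), where 10.1% and 8.19% of all probes were. ATF3, a stress-induced repressor, rose by 2.17 ± 0.25, although a second probe of ATF3 was below background on all 16 arrays. KLF6 and JUNB rose by 1.19 and 1.06. EGR1, an early growth response factor, fell by 1.00, and KLF2, a factor that keeps monocytes quiescent, by 1.10. KLF2 was lower than with LPS by a log2 difference of -1.38 (adjusted p = 0.0043). BATF3, a factor of dendritic cells, fell by 0.59 and stood at 0.47 with LPS alone.

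Among 11 genes of the metallothionein list, which also holds zinc transporters, 2 rose and 2 fell, near the 18% and 21.9% of all probes. The median change of the list was -0.30 in set 1 and 0.41 in set 2. MT2A rose as described, SLC39A8, a zinc importer, rose by 0.88 ± 0.21, and MT1G fell by 0.80 ± 0.26. MT1G was lower than with LPS by -1.46 (adjusted p = 6.98e-05). Of 26 heat shock and unfolded protein genes 10 rose and 2 fell, with a median of 0.13. PDIA4 and HSPA5, folding enzymes of the endoplasmic reticulum, rose by 0.68 and 0.42, and XBP1, a factor of the unfolded protein response, fell by 0.98 ± 0.12. Of 25 cholesterol genes 7 rose and 1 fell. ABCA1, which exports cholesterol, rose by 1.88 ± 0.51, and MYLIP, which marks lipoprotein receptors for degradation, fell by 1.18 ± 0.24. Of 25 ribosome biogenesis genes 2 rose and 5 fell against PBS, where 18% and 21.9% of all probes did. The direction turned between the sets, with a median change of 0.26 in set 1 and -0.36 in set 2. The median log2 value of this list was 9.94 to 10.01 with both stimuli and 9.52 to 9.62 with PBS in set 1, and 9.49 to 9.69 and 9.74 to 10.18 in set 2. Against LPS 9 of these genes were lower and 0 higher (15 and 0 at an unadjusted p under 0.05, by limma), where 10.1% and 8.19% of all probes were.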
